A study of Mus musculus with 12 samples.

Results

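Loss of Rasgef1b in mouse bone marrow-derived macrophages was read here as 1 difference per gene: the mean of the knockout group means with R848 and with saline, minus the same mean in wild type. The members are therefore all 12 arrays of the 12 in the series, chosen by their titles. Of 34472 rows in the value table, the 23521 with 1 gene symbol entered, and 14079 of 22180 genes were bright enough to be tested. The knockout cells came from Rasgef1b fl/fl vav-icre mice, in which Cre recombinase under the Vav promoter, active in blood-forming cells, removes a floxed part of the gene. They were cultured with saline (3 arrays) or with R848 for 4 h (3 arrays). Wild-type cells received saline (3 arrays) or R848 (3 arrays), and all cells grew in medium conditioned by L929 cells. The labels name no group with Cre alone and do not say whether the wild-type mice carry the floxed allele, so an effect of Cre or of the strain and an effect of Rasgef1b loss cannot be told apart. What the replicates are, animals or repeat cultures, is not labelled either, and p-values cover only the array-to-array spread, which may be technical. On this log2 scale a difference of 1 means a doubling, and every difference is knockout minus wild type.

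Rasgef1b encodes a guanine nucleotide exchange factor that loads GTP onto Rap2 proteins of the Ras family, and its transcript is induced in macrophages by ligands of Toll-like receptors. R848 is a small-molecule agonist of the endosomal receptor TLR7. Macrophages also make type I interferon at a low resting level and more of it after TLR stimulation. Interferon acts through a cell surface receptor, and the interferon-stimulated response element (ISRE) in the promoters of antiviral genes is bound downstream of it. Growth of the same cells in L929-conditioned medium, a source of CSF1, draws on ribosome production, nucleotide synthesis and glycolysis, in which the transcription factor Myc takes part.

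The cells carried macrophage transcripts in both genotypes. The mean of the 22 macrophage identity genes lay between 9.51 and 9.64 on the 6 knockout arrays and between 9.44 and 9.57 on the 6 wild-type arrays. Transcripts of the Y chromosome (Eif2s3y, Uty and Kdm5d) were read on every array of both genotypes, and none passed the threshold. Along principal components, R848 accounted for the first (83.7% of the variance), and the second, with 3.8%, separated all 6 knockout from all 6 wild-type arrays. Array medians lay between 4.49 and 4.57. Because these are whole cultures, fewer cells of a type and less RNA per cell cannot be told apart.

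The row of Rasgef1b itself was lower in the knockout but far from absent. It stood at 8.63, 7.88 and 8.72 in knockout cells with saline, against 9.03, 9.19 and 9.14 in wild-type cells with saline. With R848 Rasgef1b stood at 9.45, 8.60 and 9.36 in knockout cells, against 9.84, 9.84 and 9.69 in wild-type cells. The genotypes did not overlap in either treatment, and knockout replicate 2 was lowest in both treatments. The averaged difference was -0.68 ± 0.15 (SE; limma adjusted p = 0.036). An exact permutation of genotype within each treatment, two-sided, gave p = 0.005, the smallest that its 400 arrangements allow. It shuffles the saline and R848 arrays separately and so takes same-numbered arrays as independent. Since knockout arrays of 1 number deviated together, this p may be too small. The call was lost on leaving out either knockout replicate 2 array (-0.55 each time, adjusted p = 0.0632 with saline and 0.0655 with R848) or any 1 wild-type array (adjusted p between 0.0502 and 0.098). Averaging the saline and R848 arrays of 1 genotype and number before the fit gave an adjusted p of 0.167. No source used here gives the deleted exon or where the probes of this row lie, so the row checks the labels only in part.

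Over all genes, 251 of 14079 passed an adjusted p under 0.05, which is 1.78% of those tested. Whether called or not, 5997 of the 14079 differences were positive and 8064 negative, the background for the sign counts of lists below. Of these, 109 were higher in the knockout (0.774% of tested genes) and 142 were lower (1.01%). Changes were small: the median was 0.37 among the higher and -0.32 among the lower genes, 216 of the 251 differed by under 0.5, and the smallest called difference was 0.20 in size. A change of at least 2-fold was seen in 8, namely Akr1e1, Kcnma1, Erdr1, Mid1, Slfn4 and Gdf3 (higher) and Ifi208 and Cxcl1 (lower). The size is not exact for Ifi208, which was below the limit of dim rows on every knockout array. Nor is it exact for Akr1e1, which was near or below that limit on every wild-type array. The unadjusted p was under 0.05 for 2269 genes. The median SE was 0.065 for the averaged difference, against 0.092 within 1 treatment. Arrays of the genotypes did not overlap in either treatment, on the same side in both, for 182 of the 251 (85 higher, 97 lower), beside 3.1% of all tested genes (1.09% higher, 2.01% lower). The 251 were chosen by the difference of these same arrays, so this share is a description and not further evidence.

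The number of calls rested on single arrays and on the treatment of same-numbered arrays. It was 162 without knockout saline replicate 1, 85 without knockout saline replicate 2 and 91 without knockout R848 replicate 2. It was 125 without wild-type saline replicate 3, and 150, 73 and 104 without wild-type R848 replicates 1, 2 and 3. Leaving out wild-type saline replicate 2 gave 176 in all but only 81 lower. Treating same-numbered arrays of a genotype as correlated pairs left 118 genes called (59 higher, 59 lower), and with such arrays averaged first, 35 genes were called, 34 of them among the 251. The split between directions also followed the scaling: 43.4% of calls were higher as reported, against 66.3% after cyclic loess (185 higher, 94 lower) and 35.2% after median centring. Of the 251, 77 were recomputed one by one under every alternative, and the averaged difference of 0 of them changed sign. In all, 58 of the 251 genes (25 higher, 33 lower) stayed called in each of the 12 fits that left out 1 array. Of these, 27 (16 higher, 11 lower) also passed under every other alternative that tested them. The 16 are Akr1e1, Kcnma1, Erdr1, Mid1, Gdf3, Mx1, H2-Q5, Phf11a, Phf11b, Ifit1, Ifit2, Cmpk2, Stat2, Rsad2, Sp110 and Ms4a6b. The 11 are Ifi208, Uck2, Wwc2, Adss, Nop58, Dkc1, Bzw2, Hpf1, Pgk1, Hspd1 and Nomo1. Ifi208 passed the filter only through wild-type arrays and Akr1e1 through knockout arrays, where each is high. The stricter filter did not test Ifi208, so its place here is not independent of the filter.

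**Figure D1:**
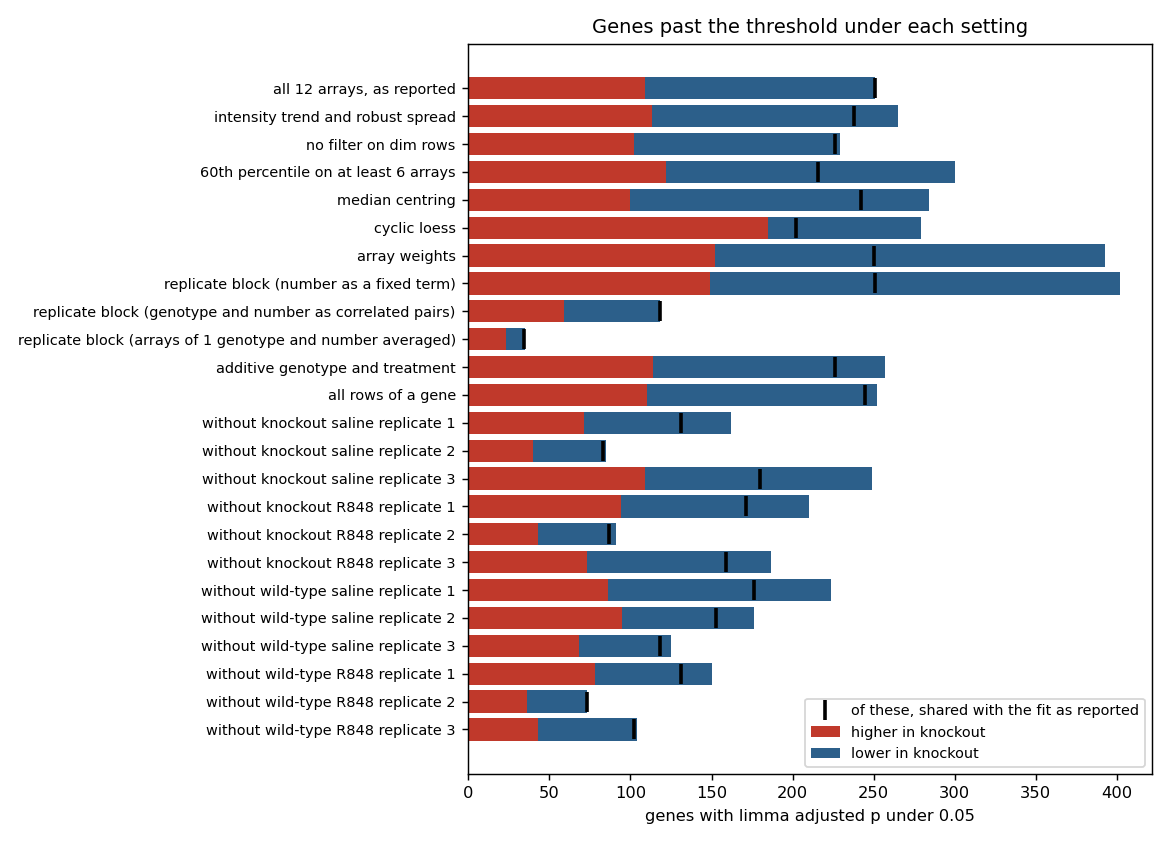
Number of genes with a limma adjusted p under 0.05 (horizontal axis) under each way of fitting or scaling and with each array left out (rows), split into genes higher and lower in the knockout. Black marks give how many are among the 251 of the fit as reported. The bars range between 35 genes, with same-numbered arrays averaged, and 402, with the replicate number as a fixed term.

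The interferon-stimulated antiviral genes were the group with the most members higher in the knockout. Of 31 on the array, all tested, 15 rose and 0 fell, beside 0.774% of all tested genes that rose. Their median difference was 0.31, against -0.02 over all tested genes, and 29 of the 31 had a positive difference. The mean of the 31 was 8.21, 8.23 and 8.22 in knockout cells with saline, against 7.78, 8.03 and 7.92 in wild-type cells with saline. With R848 it was 9.15, 9.29 and 9.21 in knockout cells, against 9.02, 8.83 and 8.90 in wild-type cells. The genotypes did not overlap in either treatment. The list's median was 0.30 with saline and 0.30 with R848. It was chosen with earlier results of these samples known, so its direction is not independent evidence. Called members numbered 12 with correlated pairs, 7 with same-numbered arrays averaged and 20 after cyclic loess. Without knockout saline replicate 2 they numbered 9, without knockout R848 replicate 2 they numbered 11, and without wild-type R848 replicate 2 they numbered 7.

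Among called members of this group, the effectors Mx1, Ifit1 and Cmpk2 had the largest differences. Mx1, a GTPase that blocks influenza-like viruses, stood at 6.25, 6.33 and 6.22 in knockout cells with saline, against 5.25, 5.77 and 5.23 in wild-type cells with saline. With R848 Mx1 stood at 8.81, 9.20 and 8.83 in knockout cells, against 8.69, 8.19 and 8.40 in wild-type cells. All knockout arrays lay above all wild-type arrays of their treatment, and the averaged difference was 0.69 ± 0.11 (SE, limma adjusted p = 0.00742). Ifit1, which binds viral RNA that lacks the host cap, stood at 7.84, 8.02 and 7.85 in knockout cells with saline and at 7.08, 7.41 and 7.21 in wild-type cells with saline. In R848-treated cells Ifit1 stood at 9.93, 10.27 and 10.18 in the knockout, against 9.83, 9.62 and 9.77 in wild type. Its groups were apart as well, with a difference of 0.53 ± 0.08 (SE, adjusted p = 0.00435). Among further effectors, Cmpk2, a mitochondrial nucleotide kinase, rose by 0.52 and Rsad2 (viperin) by 0.44. The RNA-binding Ifit2 rose by 0.485, the exonuclease Isg20 by 0.37 and Herc6, the ligase that attaches ISG15 in mice, by 0.36. Of the oligoadenylate synthetases, which switch on RNase L, Oas1g (0.33) and Oas2 (0.30) were called. So was Oasl2 (0.29), a relative of theirs. For Oas1g, Oas2 and Zbp1 the adjusted p rose to between 0.068 and 0.085 with correlated pairs.

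Sensors and signalling members of the list rose too. Stat2, a subunit of the factor that binds the ISRE, stood at 9.01, 8.86 and 8.90 in knockout cells with saline, against 8.15, 8.50 and 8.26 in wild-type cells with saline. With R848 its values were 9.54, 9.74 and 9.66 in knockout cells and 9.34, 9.18 and 9.25 in wild-type cells. The groups did not overlap, and the difference was 0.505 ± 0.07 (SE, adjusted p = 0.00235). Irf7, the factor that amplifies interferon gene transcription, rose by 0.31, the RNA sensor Ddx58 (RIG-I) by 0.37 and the nucleic acid sensor Zbp1 by 0.36. Usp18, which removes ISG15 and dampens the interferon receptor, rose by 0.48. Other well-known members did not pass: Isg15 differed by 0.16 (adjusted p = 0.206), Irf9 by 0.07 (0.65) and Ifit3 by 0.04 (0.874).

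Part of these genes share an ISRE in the promoter window of the RefSeq table (build GRCm38.p6), which spans 250 bases before and 50 bases after each start. The element was searched on both strands as GAAA, any 2 bases and GAAA again. A match was found in 19.8% of the windows of genes called higher (19 of 96 windows, 77 of 109 genes matched by symbol), in 4.26% of those called lower (6 of 141 windows, 124 of 142 genes matched) and in 3.21% of those of all tested genes. Among the called antiviral genes it was 5 of 14 windows (11 of 15 genes matched). Mx1, Oas2, Usp18 and Zbp1 had no window matched by symbol and were not searched. The stretches below belong to 8 genes called higher and are shown because they hold the match, in capitals, with 20 bases before it, 5′ to 3′ on the gene's strand.
Ifi213 (chr1:173599316-173599365, minus strand): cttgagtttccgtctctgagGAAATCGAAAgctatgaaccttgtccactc
Phf11a (chr14:59297522-59297571, minus strand): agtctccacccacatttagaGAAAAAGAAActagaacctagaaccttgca
Phf11b (chr14:59341351-59341400, minus strand): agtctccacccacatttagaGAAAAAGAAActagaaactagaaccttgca
Ifit1 (chr19:34640784-34640833, plus strand): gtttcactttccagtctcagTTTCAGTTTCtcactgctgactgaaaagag
Ddx58 (chr4:40239794-40239843, minus strand): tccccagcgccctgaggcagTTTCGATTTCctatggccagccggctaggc
Oas1g (chr5:120887596-120887645, minus strand): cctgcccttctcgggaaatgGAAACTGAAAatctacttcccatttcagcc
Rsad2 (chr12:26456543-26456592, minus strand): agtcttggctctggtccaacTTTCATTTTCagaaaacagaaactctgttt
Stat2 (chr10:128270256-128270305, plus strand): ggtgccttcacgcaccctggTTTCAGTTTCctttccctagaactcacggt
In Ifit1, Ddx58, Rsad2 and Stat2 the capitals are the reverse complement of the element, and the windows of Ifit1 and Oas1g hold 2 matches each. The first capital lies 73 bases before the start in Ifi213, 29 in Phf11a and 50 in Phf11b. The windows of Cmpk2, Ifit2, Irf7, Isg20, Herc6 and Oasl2 hold no match. Other motifs were searched the same way. The GAS letters TTCNNNGAA were in 9.38% of windows of higher and 9.22% of lower genes (6.82% of all tested). The E-box CACGTG, which Myc can bind, was in 5.21% and 13.5% (9.43% of all tested), and TCACNCCAC, a sterol element, in 1.04% and 0.709% (1.24%). These matches describe letters and do not show binding.

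**Figure D2:**
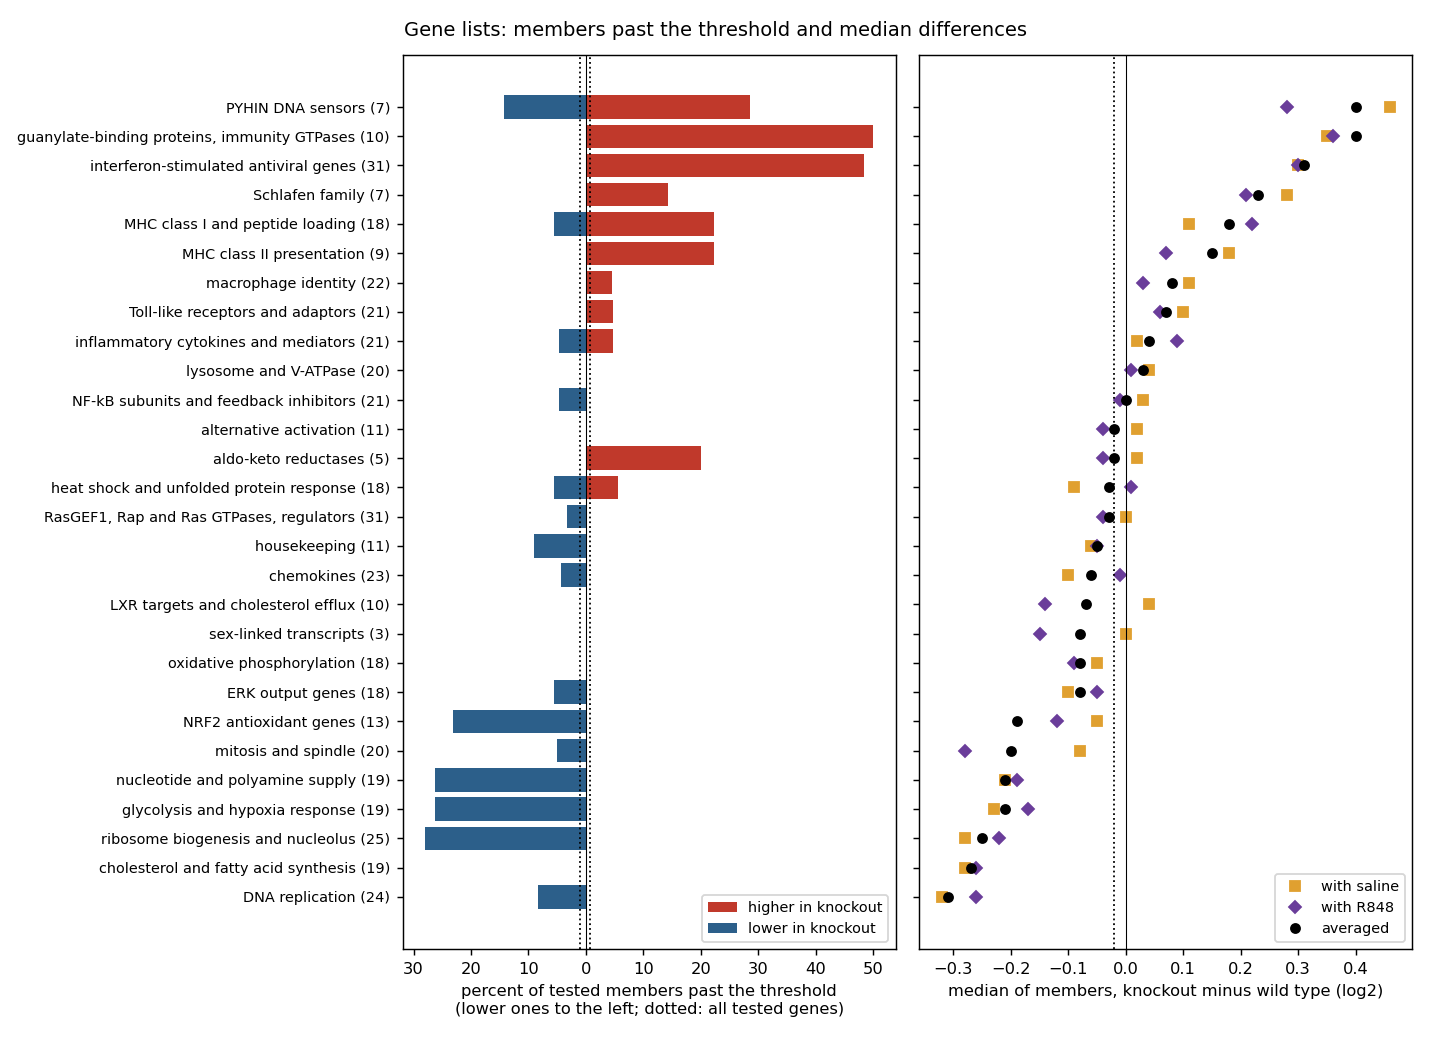
Left, percent of the tested members of each gene list (number in brackets) past the threshold, genes higher in the knockout to the right and lower to the left, with dotted lines at 0.774% and 1.01% for all tested genes. Right, the list's median knockout minus wild-type difference (log2) with saline, with R848 and averaged, where the antiviral list lies at 0.31 and DNA replication at -0.31.

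Neighbouring families of interferon-inducible genes held further calls. Of 10 tested guanylate-binding proteins and immunity-related GTPases, which attack vacuoles that hold pathogens, 5 rose and 0 fell, with a median of 0.40 and a positive difference in all 10. They were Irgm2 (0.46), Gbp7 (0.46), Gbp9 (0.42), Gbp3 (0.40) and Gbp5 (0.39). Over all tested genes 0.774% rose. The list mean was 6.28, 6.38 and 6.15 in knockout cells with saline, against 5.81, 6.11 and 5.87 in wild-type cells with saline. With R848 it was 7.91, 8.24 and 8.01 in knockout cells, against 7.83, 7.57 and 7.66 in wild-type cells, so the groups did not overlap. These calls rested on single arrays: 2 members stayed with correlated pairs and 1 with same-numbered arrays averaged. The number called was 0 without knockout saline replicate 2, knockout R848 replicate 2, wild-type R848 replicate 2 or wild-type R848 replicate 3. Leaving out knockout saline replicate 1 or wild-type saline replicate 3 gave 1. Leaving out knockout R848 replicate 3 or wild-type saline replicate 1 gave 3.

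Members of the PYHIN family, sensors of DNA that lie side by side on chromosome 1, went both ways. Ifi213 rose by 0.81 ± 0.14 (SE, adjusted p = 0.013) and Ifi204 by 0.40, whereas Ifi208 fell by 1.26 ± 0.16 (adjusted p = 0.00235). Ifi213 stood at 5.63, 6.54 and 6.36 in knockout cells with saline, against 5.27, 5.61 and 5.30 in wild-type cells with saline, and at 6.92, 7.46 and 7.27 in knockout cells with R848, against 6.47, 6.20 and 6.49 in wild-type cells with R848. Ifi208 stood at 3.07, 3.66 and 3.30 in knockout cells with saline, against 3.45, 4.53 and 3.88 in wild-type cells with saline. With R848 Ifi208 stood at 3.47, 3.70 and 3.16 in knockout cells, against 5.51, 5.03 and 5.51 in wild-type cells. Its groups overlapped with saline and were apart with R848, and every knockout value lay below the limit of dim rows (4.31 to 4.35). Ifi208 passed the filter only through wild-type arrays, so its difference is not an exact size, and the stricter filter did not test it. The 7 tested members had a median of 0.40, and 42.9% were called, beside 1.78% of all tested genes. Of the called members, 1 rather than 2 stayed higher without wild-type R848 replicate 2 or with same-numbered arrays averaged. These genes are similar copies, and whether their probes read each other's transcripts was not tested.

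The Schlafen family, growth regulators induced by interferon, had 1 of 7 members called (14.3%, beside 1.78% of all tested genes) and a median of 0.23. Slfn4, known in mouse myeloid cells, stood at 5.26, 6.23 and 6.02 in knockout cells with saline, against 4.59, 5.19 and 4.75 in wild-type cells with saline. With R848 Slfn4 stood at 6.89, 8.41 and 8.22 in knockout cells, against 6.31, 6.40 and 6.45 in wild-type cells. The difference was 1.22 ± 0.23 (SE, adjusted p = 0.018), knockout replicate 1 was the lowest knockout array in both treatments, and the groups stayed apart. With same-numbered arrays averaged the adjusted p was 0.101. The call was also lost without knockout saline replicate 2 or wild-type R848 replicate 2.

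Antigen presentation genes rose in part. Of 18 tested MHC class I and peptide loading genes, 4 rose and 1 fell, with a median of 0.18. The share called was 27.8%, beside 1.78% of all tested genes. H2-Q5, a class Ib gene, stood at 6.79, 6.48 and 6.27 in knockout cells with saline, against 5.54, 5.85 and 5.44 in wild-type cells with saline. With R848 H2-Q5 stood at 7.40, 7.44 and 7.41 in knockout cells, against 7.04, 6.98 and 6.90 in wild-type cells. The groups were well apart, with a difference of 0.67 ± 0.09 (SE, adjusted p = 0.00209). H2-Q4 (0.42), H2-T24 (0.35) and the peptide transporter Tap1 (0.30) rose as well. H2-Q10, which neighbours H2-Q5, fell by 0.75 ± 0.17 (adjusted p = 0.0404), a call lost in 11 of the 12 fits that left out an array. A second row differed by 0.275 for H2-Q5 and by 0.12 for H2-Q4, less than the rows used. For H2-Q10 a dim second row (mean 4.09) differed by 0.12, with the opposite sign. With correlated pairs 2 members were higher and 0 lower, since the adjusted p was 0.0515 for H2-T24, 0.0543 for Tap1 and 0.0791 for H2-Q10, and with same-numbered arrays averaged 1 was higher. The number higher was also 2 without knockout saline replicate 2, knockout R848 replicate 2 or wild-type R848 replicate 2. Of 9 tested MHC class II genes, 2 rose (22.2%) and 0 fell, with a median of 0.15. These were the chains H2-Ab1 (0.39) and H2-Aa (0.36). With correlated pairs 1 stayed called (adjusted p = 0.0641 for H2-Ab1), with same-numbered arrays averaged 0, and without wild-type R848 replicate 2 also 0. H2-Ab1 was lost in 10 of the 12 fits that left out 1 array.

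Genes of ribosome production moved the other way. Of 25 tested, 7 fell and 0 rose, beside 1.01% of all tested genes that fell, and the median was -0.25 with a negative difference in all 25. The list mean was 6.91, 6.90 and 6.99 in knockout cells with saline, against 7.22, 7.21 and 7.23 in wild-type cells with saline. With R848 it was 7.27, 7.16 and 7.34 in knockout cells, against 7.51, 7.52 and 7.46 in wild-type cells. The genotypes did not overlap in either treatment. Nop58, a core protein of the particles that methylate ribosomal RNA, stood at 7.13, 7.42 and 7.42 in knockout cells with saline, against 7.95, 7.90 and 8.06 in wild-type cells with saline. With R848 Nop58 stood at 8.23, 8.13 and 8.34 in knockout cells, against 8.58, 8.68 and 8.50 in wild-type cells. It fell by 0.50 ± 0.07 (SE, adjusted p = 0.00235), with every knockout array below every wild-type array of its treatment.

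Dkc1, the enzyme that makes pseudouridine in ribosomal RNA, stood at 5.89, 5.85 and 5.88 in knockout cells with saline, against 6.13, 6.20 and 6.25 in wild-type cells with saline. With R848 Dkc1 stood at 5.84, 5.77 and 6.07 in knockout cells, against 6.67, 6.52 and 6.52 in wild-type cells. Its arrays were apart too, with a difference of -0.50 ± 0.06 (SE, adjusted p = 0.000998). Bzw2, a regulator of translation initiation, fell by 0.43, and Nop56, the partner of Nop58, by 0.35. Utp20 and Nhp2, which act in the processing and pseudouridylation of ribosomal RNA, fell by 0.30 and 0.28, and the helicase Ddx21 by 0.27. With correlated pairs 6 members stayed called (adjusted p = 0.0641 for Nop56), and with same-numbered arrays averaged 3. Without knockout R848 replicate 2 there were 4, and without wild-type R848 replicate 2 there were 3. Second rows of Nop56 (-0.07 and -0.065) and Ddx21 (-0.07) showed smaller differences. Myc, counted among ERK output genes, fell by 0.40 ± 0.09 (adjusted p = 0.036). It stood at 7.08, 7.47 and 7.45 in knockout cells with saline, against 7.71, 7.93 and 7.83 in wild-type cells with saline, but the genotypes met at 7.77 with R848, at 7.67, 7.34 and 7.77 in knockout cells and 7.77, 8.05 and 7.91 in wild-type cells. The call of Myc was lost with correlated pairs (adjusted p = 0.0717).

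Nucleotide and polyamine supply had 5 of 19 tested members lower and 0 higher, with a median of -0.21. Over all tested genes 1.01% fell. The list mean was 6.66, 6.67 and 6.83 in knockout cells with saline, against 6.98, 6.98 and 7.01 in wild-type cells with saline. With R848 it was 6.84, 6.68 and 6.88 in knockout cells, against 7.01, 7.08 and 6.98 in wild-type cells, again without overlap. Uck2, which phosphorylates uridine and cytidine in the salvage pathway, had the largest decrease among genes whose arrays did not overlap. It stood at 6.21, 6.30 and 6.51 in knockout cells with saline, against 7.19, 7.45 and 7.30 in wild-type cells with saline. With R848 Uck2 stood at 7.09, 6.41 and 6.86 in knockout cells, against 7.72, 7.72 and 7.47 in wild-type cells. The difference was -0.91 ± 0.10 (SE, adjusted p = 0.00055), and a dim second row differed by -0.10. Adss, an enzyme of AMP synthesis, stood at 8.45, 8.30 and 8.45 in knockout cells with saline, against 8.86, 8.92 and 9.06 in wild-type cells with saline. With R848 Adss stood at 8.35, 8.30 and 8.36 in knockout cells, against 8.89, 8.87 and 8.64 in wild-type cells. It was lower by a similar amount in both treatments (-0.505 ± 0.06 SE, adjusted p = 0.000998). Srm, which makes spermidine, fell by 0.43, Psat1, of serine synthesis, by 0.36 and Cad, which starts pyrimidine synthesis, by 0.30. With correlated pairs 2 members stayed called, and the adjusted p was 0.0545 for Srm, 0.0545 for Psat1 and 0.0821 for Cad. Averaging same-numbered arrays also left 2, as did leaving out knockout R848 replicate 2, wild-type R848 replicate 2 or wild-type R848 replicate 3. The number was 3 without knockout saline replicate 2, wild-type saline replicate 2 or wild-type saline replicate 3.

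Glycolysis and hypoxia response genes had 5 of 19 tested members lower and 0 higher, with a median of -0.21, beside 1.01% of all tested genes that fell. The list mean was 7.92, 7.87 and 7.83 in knockout cells with saline, against 8.13, 8.05 and 8.10 in wild-type cells with saline. With R848 it was 8.46, 8.39 and 8.40 in knockout cells, against 8.59, 8.61 and 8.60 in wild-type cells. Both treatments kept the genotypes apart. Pgk1, which makes ATP in glycolysis, stood at 10.17, 10.03 and 10.19 in knockout cells with saline, against 10.56, 10.45 and 10.71 in wild-type cells with saline. With R848 Pgk1 stood at 10.25 on each of the 3 knockout arrays, against 10.55, 10.60 and 10.68 in wild-type cells. It fell by 0.40 ± 0.06 (SE, adjusted p = 0.00421). The glucose transporter Slc2a1 fell by 0.38, phosphofructokinase Pfkl by 0.28, pyruvate kinase Pkm by 0.27 and lactate dehydrogenase Ldha by 0.21. The call of Ldha was lost in each of the 12 fits that left out 1 array and with correlated pairs (adjusted p = 0.0836), which left 4 members called. With same-numbered arrays averaged 1 was called. The number was 3 without knockout R848 replicate 2, wild-type saline replicate 3, wild-type R848 replicate 2 or wild-type R848 replicate 3, and a second row of Slc2a1 differed by -0.07. Pgk1 is also the 1 called gene (9.09%) of 11 tested housekeeping genes, whose median was -0.05.

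**Figure D3:**
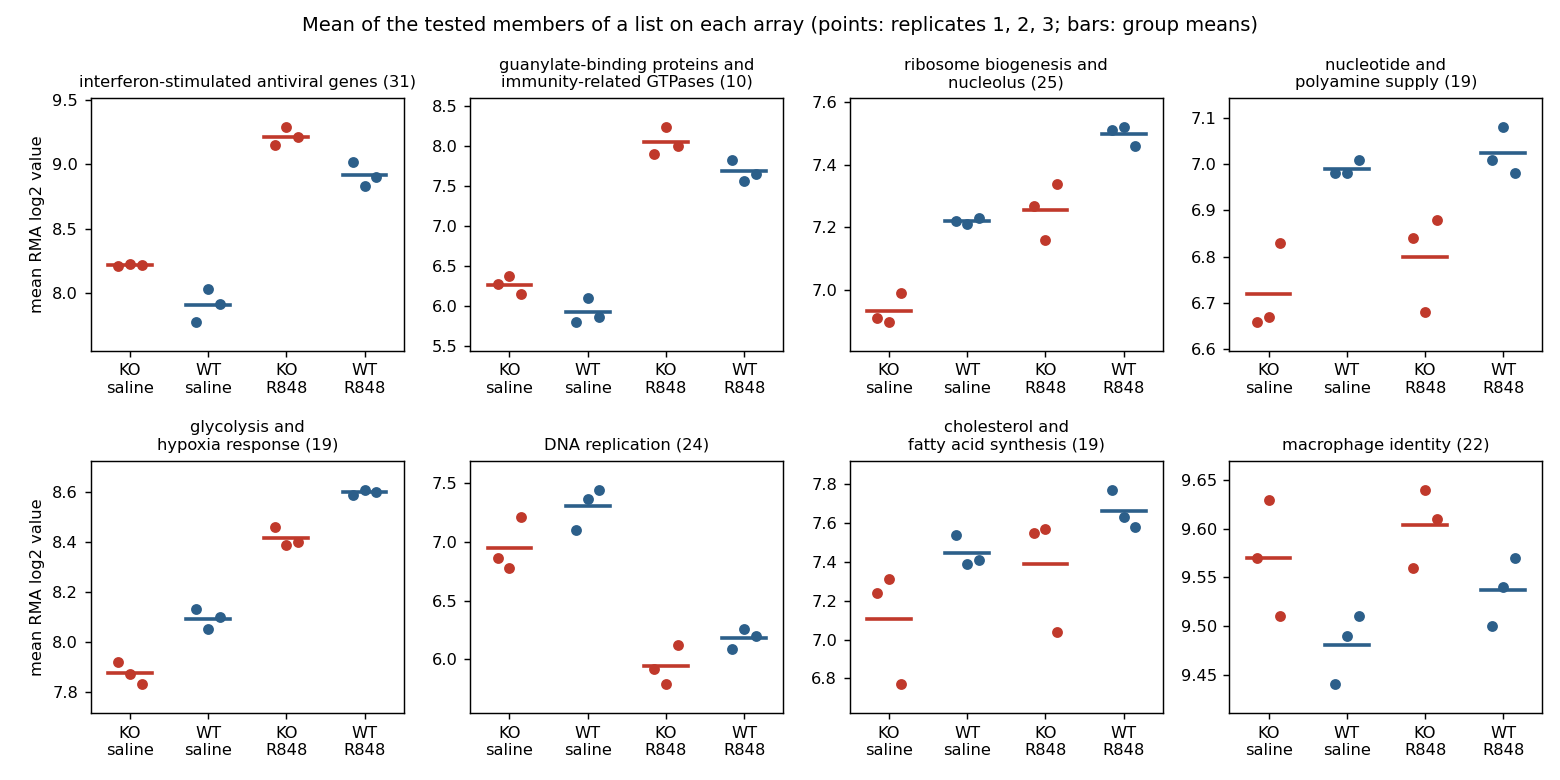
Mean RMA log2 value (vertical axes, not starting at 0) of the tested members of 8 gene lists on each array, with bars at the group means, for knockout (KO) and wild type (WT) with saline and R848. The antiviral and guanylate-binding lists lie higher in the knockout without overlap in either treatment. The ribosome, nucleotide, glycolysis and cholesterol lists lie lower without overlap, while DNA replication and macrophage identity overlap.

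Few cell cycle genes passed the threshold, though at shares above that of all tested genes. The share called was 8.33% for DNA replication and 5.0% for mitosis, beside 1.78% of all tested genes. Of 24 DNA replication genes 2 fell, the chromatin remodeller Hells (-0.55 ± 0.09 SE, adjusted p = 0.0115) and the helicase subunit Mcm3 (-0.445, adjusted p = 0.0451), and all 24 differences were negative, with a median of -0.31. Hells stood at 5.88, 5.75 and 6.28 in knockout cells with saline, against 6.49, 6.70 and 6.85 in wild-type cells with saline. With R848 Hells stood at 4.28, 4.56 and 4.61 in knockout cells, against 4.81, 4.87 and 4.95 in wild-type cells. The list mean overlapped in both treatments, between 6.78 and 7.21 in knockout and 7.10 and 7.44 in wild-type cells with saline, and between 5.79 and 6.12 in knockout and 6.09 and 6.26 in wild-type cells with R848. Mcm5 (-0.525, adjusted p = 0.0711) and Cdc6 (-0.435, adjusted p = 0.0603) did not pass. With correlated pairs Mcm3 was lost (adjusted p = 0.0729), as it was in 9 of the 12 fits that left out 1 array, and with same-numbered arrays averaged the list held 0 calls. The number of calls was 10 on leaving out knockout saline replicate 3, 5 on leaving out knockout R848 replicate 3, 4 without wild-type saline replicate 1 and 1 in each of the other 9 such fits. Of 20 mitosis genes, 1 fell, the cell cycle transcription factor Mybl2 (-0.37), and the median was -0.20. A second row of Mybl2 differed by -0.08. Bub1 (-0.48) and Top2a (-0.33) did not pass.

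Cholesterol and fatty acid synthesis held no called gene among 19, although the median was -0.27 and all 19 differences were negative. The list mean was 7.24, 7.31 and 6.77 in knockout cells with saline, against 7.54, 7.39 and 7.41 in wild-type cells with saline. With R848 it was 7.55, 7.57 and 7.04 in knockout cells, against 7.77, 7.63 and 7.58 in wild-type cells. Knockout replicate 3 was the lowest in both treatments. The genotypes did not overlap in either treatment, though with R848 they came as near as 7.57 and 7.58. The largest differences were those of Scd1 (-0.85 ± 0.31 SE, adjusted p = 0.184), Cyp51 (-0.43) and Fasn (-0.39), none past the threshold. Scd1, which desaturates fatty acids, ranged between 4.32 and 6.53 on knockout arrays with saline alone.

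Antioxidant genes under the factor NRF2 had 3 of 13 tested members lower and 0 higher, with a median of -0.19. Over all tested genes 1.01% fell. Slc7a11, the cystine importer, fell by 0.52, and both subunits of the enzyme that starts glutathione synthesis fell, Gclm by 0.44 and Gclc by 0.27. Slc7a11 stood at 3.38, 3.46 and 3.48 in knockout cells with saline, against 3.57, 3.44 and 3.47 in wild-type cells with saline, where it is dim and the groups overlapped. With R848 Slc7a11 stood at 6.82, 6.60 and 6.37 in knockout cells, against 7.97, 7.14 and 7.63 in wild-type cells, without overlap. The test of the difference between treatments did not pass for it. With correlated pairs Slc7a11 was lost (adjusted p = 0.0641), as it was in 10 of the 12 fits that left out 1 array. With same-numbered arrays averaged the list held 0 calls. It held 0 as well without knockout saline replicate 2, wild-type saline replicate 3 or wild-type R848 replicate 1, and 1 without knockout R848 replicate 2 or wild-type saline replicate 2. Among 18 chaperone and unfolded protein response genes, the mitochondrial chaperonin Hspd1 fell by 0.38. The inducible Hspa1a rose by 0.35, a call lost without wild-type R848 replicate 3. Called genes made up 11.1% of this list, beside 1.78% of all tested genes.

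The largest single differences lay outside these groups. Akr1e1, an aldo-keto reductase, stood at 7.02, 7.39 and 6.72 in knockout cells with saline, against 3.82, 4.30 and 3.97 in wild-type cells with saline. With R848 Akr1e1 stood at 6.45, 6.52 and 6.90 in knockout cells, against 4.32, 4.08 and 3.89 in wild-type cells. All wild-type values were near or below the limit of dim rows, so the fold is compressed and not an exact size. Akr1e1 passed the filter through its knockout arrays, where it is high. The averaged difference was 2.77 ± 0.12 (SE, adjusted p = 1.97e-08), and the other 4 tested aldo-keto reductases did not pass. Erdr1, erythroid differentiation regulator 1, annotated on the X chromosome here, stood at 11.32, 11.32 and 11.43 in knockout cells with saline, against 9.63, 9.24 and 9.24 in wild-type cells with saline. With R848 Erdr1 stood at 11.58, 11.34 and 11.35 in knockout cells, against 9.80, 9.32 and 9.54 in wild-type cells. Its difference was 1.93 ± 0.09 (SE, adjusted p = 1.98e-08), and a second row gave 1.78.

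Mid1, a microtubule-binding ubiquitin ligase on the X chromosome, stood at 9.28, 8.93 and 8.81 in knockout cells with saline, against 7.42, 7.72 and 7.33 in wild-type cells with saline. With R848 Mid1 stood at 9.85, 9.09 and 8.76 in knockout cells, against 7.50, 7.14 and 7.53 in wild-type cells. It was higher by 1.68 ± 0.15 (SE, adjusted p = 7.01e-05), and by 0.89 in a second row. Kcnma1, the pore of the calcium-activated BK potassium channel, was among the brightest of these rows. It stood at 11.66, 12.64 and 12.46 in knockout cells with saline, against 10.19, 10.50 and 10.34 in wild-type cells with saline. With R848 Kcnma1 stood at 11.39, 12.49 and 12.36 in knockout cells, against 9.99, 10.23 and 10.09 in wild-type cells. Knockout replicate 1 was the lowest knockout array in both treatments and still above every wild-type array. The difference was 1.94 ± 0.18 (SE, adjusted p = 8.63e-05), whereas a dim second row of Kcnma1 (mean 3.89) differed by 0.02.

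Gdf3, a ligand of the TGF-beta family, stood at 6.26, 6.61 and 6.37 in knockout cells with saline, against 4.91, 5.36 and 5.23 in wild-type cells with saline. With R848 Gdf3 stood at 6.02, 6.19 and 6.17 in knockout cells, against 5.15, 5.22 and 5.20 in wild-type cells. Its arrays were apart in both treatments (1.09 ± 0.08 SE, adjusted p = 6.2e-06). Hpse, heparanase, which cleaves heparan sulfate, rose by 0.70 ± 0.11 (adjusted p = 0.00742). Phf11a, a PHD finger protein, rose by 0.56 ± 0.08 (adjusted p = 0.00575), together with its neighbour Phf11b (0.46).

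Among the lower genes, Wwc2, of the family that regulates Hippo signalling, stood at 5.31, 5.08 and 5.10 in knockout cells with saline, against 5.70, 5.94 and 6.02 in wild-type cells with saline. With R848 Wwc2 stood at 4.81, 4.98 and 4.96 in knockout cells, against 5.36, 5.69 and 5.68 in wild-type cells. The difference was -0.69 ± 0.08 (SE, adjusted p = 0.00055), with no overlap. Dcstamp, needed for macrophages and osteoclasts to fuse, fell by 0.90 ± 0.18 (adjusted p = 0.0245), to values between 5.72 and 6.39 with saline and between 5.56 and 6.17 with R848 in knockout cells, against 6.61 to 7.33 with saline and 6.27 to 7.22 with R848 in wild-type cells. Its adjusted p was 0.136 with same-numbered arrays averaged. Mif, the macrophage migration inhibitory factor, fell by 0.46 ± 0.08 (adjusted p = 0.00834), and Serpinb2, an inhibitor of plasminogen activators, by 0.47 ± 0.07 (adjusted p = 0.0069). Serpinb2 was dim with saline, at 3.65 to 3.78 in knockout and 3.80 to 3.92 in wild-type cells, and stood at 7.58, 7.21 and 7.67 in knockout cells with R848, against 8.25, 8.31 and 8.23 in wild-type cells with R848. The collagenase Mmp8 fell by 0.51 ± 0.11 (adjusted p = 0.0375), a call lost in 10 of the 12 fits that left out an array.

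**Figure D4:**
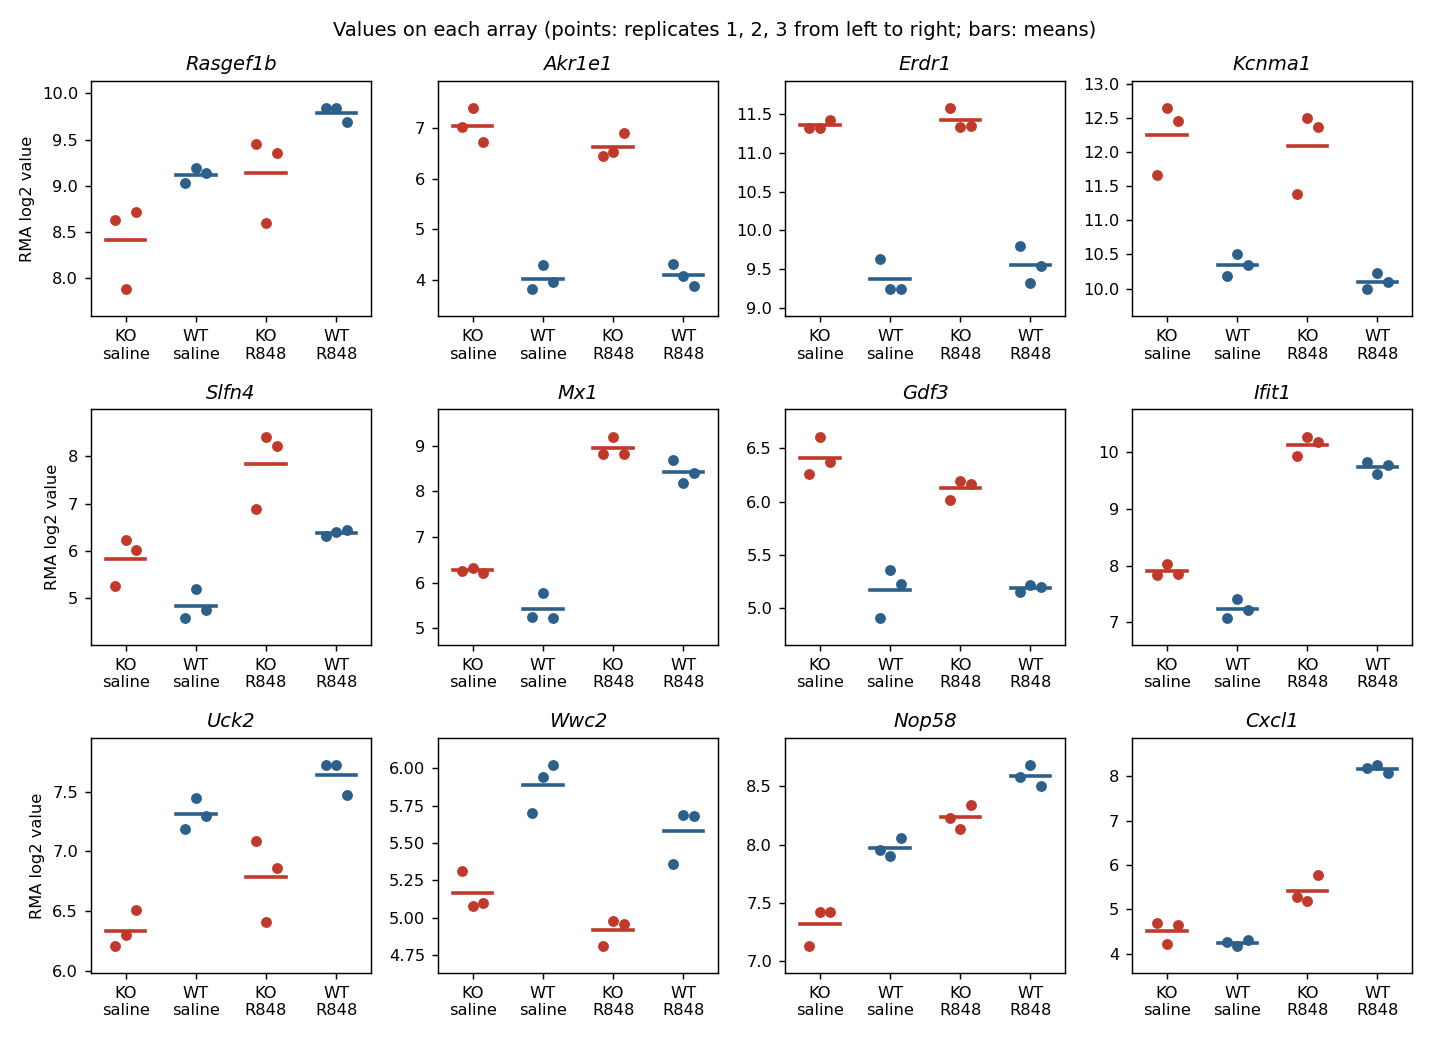
RMA log2 value (vertical axes, not starting at 0) of 12 genes on each array, with replicates 1, 2 and 3 placed from left to right and bars at the group means, for knockout (KO) and wild type (WT) with saline and R848. Akr1e1 lies between 6.45 and 7.39 on knockout arrays and between 3.82 and 4.32 on wild-type arrays, and Cxcl1 separates the genotypes in R848-treated cells only.

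Lists of inflammatory signalling held few called genes, though at shares above the 1.78% of all tested genes. The share called was 9.52% for cytokines and mediators and 4.35% for chemokines. It was 4.76% both for NF-kB genes and for Toll-like receptors and adaptors. Of 21 tested cytokines and mediators, 1 rose (Il18, 0.31) and 1 fell (Il1f9, -0.53), and the median was 0.04. Il1f9 was below the limit of dim rows on all knockout arrays and on all wild-type arrays with saline. It passed the filter only through wild-type arrays with R848, where it is high, so its difference is not an exact size. The list held 0 lower calls with the stricter filter, with additive terms or with same-numbered arrays averaged. Tnf (-0.07), Il1b (-0.06) and Il6 (0.09) did not pass. Of 23 chemokines 1 fell, Cxcl1, with a median of -0.06, and Cxcl10 (0.47, adjusted p = 0.0708) did not pass. Of 21 NF-kB subunits and feedback inhibitors 1 fell, the stress gene Ier3 (-0.37), with a median of 0.00. Of 21 Toll-like receptors and adaptors 1 rose, Tlr3, the receptor for double-stranded RNA (0.39), with a median of 0.07. With correlated pairs the adjusted p was 0.0726 for Il18, 0.0729 for Ier3 and 0.0613 for Tlr3, and of the 12 fits that left out 1 array, 10 lost Il18, 8 lost Ier3 and 8 lost Tlr3. Tlr7, the receptor of R848 in mice, stood at 9.25, 9.28 and 9.04 in knockout cells with saline, against 8.87, 8.91 and 9.05 in wild-type cells with saline, and its averaged difference of 0.19 did not pass (adjusted p = 0.12).

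Around Rasgef1b itself, 1 of 31 RasGEF1 family members, Rap and Ras GTPases and their regulators was called (3.23%), namely Rasgef1b. The GTPases it is known to act on had small differences that did not pass, with 0.08 ± 0.07 (SE) for Rap2b, -0.04 ± 0.09 for Rap2a and -0.08 ± 0.07 for Rap2c. Of 18 ERK output genes 1 fell, Myc (5.56%, beside 1.78% of all tested genes called), and the median was -0.08, with 3 positive and 15 negative differences. Among 22 macrophage identity genes 1 rose (4.55%), the sialic acid receptor Siglec1 (0.41 ± 0.08 SE, adjusted p = 0.0178), a call lost without knockout saline replicate 2. In that list 19 differences were positive and 3 negative, with a median of 0.08. Lists without a called gene were alternative activation (11 tested, median -0.02), LXR targets (10, -0.07), oxidative phosphorylation (18, -0.08), lysosome and V-ATPase (20, 0.03) and sex-linked transcripts (3, -0.08). For oxidative phosphorylation 17 of the 18 small differences were negative and 1 positive. Markers of dendritic cells (7 tested, median 0.08) and of T cells, B cells, NK cells, mast cells, fibroblasts, erythroid cells and haematopoietic progenitors held 0 called genes. For neutrophils 4 of 12 markers were tested, of which S100a9 rose (0.295) and Mmp8 fell, both lost with correlated pairs (adjusted p = 0.0758 for S100a9 and 0.0615 for Mmp8) and each in 10 of the 12 fits that left out 1 array, and 5 of the 12 lay under the limit of dim rows on every array. The mean of all 12 lay between 3.98 and 4.09 on knockout arrays, against 3.97 to 4.10 on wild-type arrays.

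The same genotype difference was looked for in each treatment. Of the 251 genes, 250 differed in the same direction with saline and with R848, the exception being Cxcl1, and 158 had the larger difference with saline. Since the average was used to choose them, this is a description. With saline alone 47 genes were called (0.334% of those tested; 20 higher, 0.142%, and 27 lower, 0.192%), of which 41 are among the 251, and with R848 alone 19 (0.135%; 8 higher, 0.0568%, and 11 lower, 0.0781%), of which 16 are among them. The other 201 of the 251 were called in neither treatment alone. The treatments share no array, but same-numbered knockout arrays deviated together (residual correlations of 0.27, 0.17 and 0.28), so the treatments are not independent and the shares below are a description. Of the 47 called with saline, 46 (97.9%) had the same sign with R848, beside 61.1% of all tested genes, and 7 (14.9%) were called there. Of the 19 called with R848, 15 (78.9%) had the same sign with saline and 7 (36.8%) were called there. Across the 14079 genes, which are not independent replicates, the differences of both treatments correlated with Pearson's r = 0.44.

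**Figure D5:**
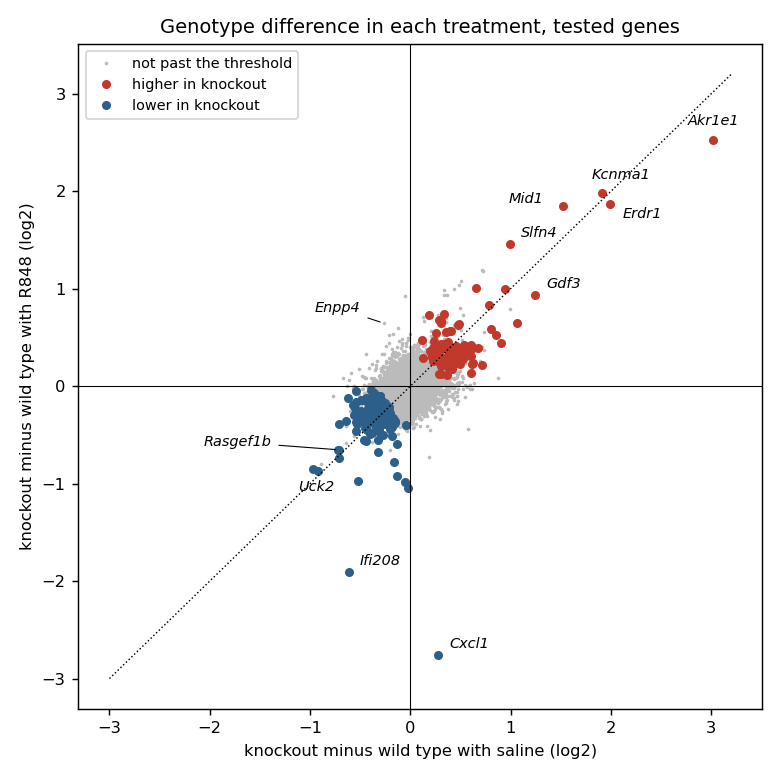
Knockout minus wild-type difference (log2) of each tested gene with saline (horizontal) and with R848 (vertical), coloured where the averaged difference passed the threshold, with a dotted line where both are equal. Akr1e1, Kcnma1, Erdr1 and Mid1 lie near that line, and Cxcl1 lies at 0.28 with saline and -2.76 with R848.

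A difference between treatments passed the threshold for 2 genes (0.0142% of those tested; 1 in each direction, 0.0071%), so for these the average hides a contrast. Cxcl1, a chemokine that draws neutrophils, stood at 4.69, 4.23 and 4.64 in knockout cells with saline, against 4.26, 4.17 and 4.30 in wild-type cells with saline. With R848 Cxcl1 stood at 5.29, 5.19 and 5.77 in knockout cells, against 8.19, 8.25 and 8.08 in wild-type cells. The groups overlapped with saline and were far apart with R848, which gave an averaged difference of -1.24 ± 0.10 (SE, adjusted p = 1.66e-05). A fit with additive genotype and treatment terms did not call Cxcl1 (adjusted p = 0.131). Enpp4, an ectoenzyme that cleaves nucleotides, stood at 4.56, 4.56 and 4.27 in knockout cells with saline, against 4.72, 4.79 and 4.68 in wild-type cells with saline. With R848 Enpp4 stood at 5.53, 5.71 and 5.53 in knockout cells, against 4.97, 4.95 and 4.91 in wild-type cells. Its signs were opposite, and the average of 0.19 did not pass (adjusted p = 0.141).

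The called genes lay on every chromosome but Y. Adjacent among tested genes and higher together were Phf11, Phf11a and Phf11b on chromosome 14, and Gbp5, Gbp7 and Gbp3 on chromosome 3. Close together but with uncalled genes between them were Ms4a7, Ms4a4c, Ms4a6c and Ms4a6b on chromosome 19 (4 called of 6 tested genes spanned) and C130026I21Rik, Sp110 and Sp100 on chromosome 1 (3 of 4), all higher. Of mixed direction were Ifi213, Ifi208 and Ifi204 on chromosome 1 (3 of 5), and Ddx39b, H2-Q4, H2-Q5 and H2-Q10 on chromosome 17 (4 of 5). The call of Ddx39b (0.355) rests on the choice of its row. A second row nearly as bright (mean 9.14, against 9.16 for the row used) differed by -0.04, and a dimmer row (mean 6.94) by 0.12. Among the 100 tested genes nearest to Rasgef1b on chromosome 5, 50 on either side, 3 were higher (G3bp2, Hpse and Gbp9) and 3 lower (Cxcl1, Septin11 and Hnrnpd), or 6%, beside 1.78% of all tested genes. No test was made of this share.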

How the data were processed

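Total RNA was hybridized to whole-transcript mouse arrays. The deposited values are log2 values made with Affymetrix Expression Console and RMA, per the submitters' processing notes, with versions not given in the sources used here. RMA equalizes the arrays, so a change in total RNA per cell is not visible, and it compresses dim rows. Strips and dates were not used, so a batch that followed the groups cannot be told apart from them. The number of arrays limits precision.

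Of 34472 rows, 23521 had 1 symbol in the platform table, 1814 had several and 9137 none. The row with the highest mean stood for each of 1082 symbols with more than 1 row. A gene was tested if above the 40th percentile of its array on at least 3 arrays, limits of 4.31 to 4.35, which removed 8101 genes. Groups and replicate numbers came from titles. All 12 arrays entered 1 limma fit (3.58.1, R 4.3.3; lmFit and eBayes, a mean per group), with Benjamini-Hochberg adjustment over all tested genes per contrast and a threshold of 0.05. The fit was tested on simulated data whose arrays varied independently, so that test does not cover same-numbered arrays that deviate together. Lists are described by counts and medians.

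Named were Rasgef1b, the 12 largest increases and decreases among called genes whose genotypes do not overlap in either treatment, up to 4 members per list and genes with a called interaction. Other called list members, Ifi208, those called in all alternatives, and genes of neighbouring runs and further called genes were named after their values were seen. The members and lists were chosen with earlier results of these data known. Same-numbered arrays were checked by the correlation of residuals, which for numbers 1, 2 and 3 was 0.27, 0.17 and 0.28 between knockout R848 and knockout saline, 0.25, -0.06 and 0.23 between wild-type R848 and wild-type saline, 0.12, -0.12 and 0.14 between knockout and wild type with saline, and 0.33, 0 and 0.1 between them with R848. Not every pair exceeded 0.1, except among knockout arrays, so the numbers were not taken to pair the genotypes in the reported fit. The third principal component still ordered numbers 1, 2 and 3 alike in every group. Its scores were 9.2, 2.2 and -8.7 in wild-type cells with saline and 9.2, -4.9 and -6.4 with R848. In knockout cells they were 7.7, -1.4 and -9.0 with saline and 8.6, -1.2 and -5.2 with R848. The reported fit leaves this spread unmodelled, and its source was not tested. Alternatives covered the filter, scaling, spread, weights, the replicate number, all rows of a gene and each array left out.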

Additional observations from a re-analysis of the deposited data

Results flagged for a closer look

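The knockout effect differed between treatments for 2 genes by a test of the difference itself, the knockout minus wild-type difference with R848 minus that with saline. For the chemokine Cxcl1 it was -3.03 ± 0.20 (SE, limma adjusted p = 4.58e-06), with a knockout difference of -2.76 with R848 and 0.28 with saline. For the ectoenzyme Enpp4 it was 0.91 ± 0.12 (SE, adjusted p = 0.0226), with 0.65 with R848 and -0.27 with saline. No group had over 3 arrays, so single arrays were not screened for outliers.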

How the results depend on the processing

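Of 78 genes recomputed one by one, 0 changed sign under any alternative; other named genes were not followed singly. Cyclic loess gave 185 higher and 94 lower genes, and array weights 393 in all, 241 lower. In fits with the replicate number as a block, a fixed term gave 402 genes (253 lower), correlated pairs of 1 genotype and number (correlation 0.174) gave 118 (59 higher, 59 lower), and averaged pairs gave 35 (23 higher, 12 lower). For Rasgef1b the difference stayed -0.68 in those, with an adjusted p of 0.054 for correlated pairs and 0.167 for averaged pairs, and 0.0643 with an intensity trend and robust spread. Leaving out 1 array gave between 73 and 249 genes, 36 to 109 higher and 37 to 140 lower, and a Rasgef1b difference between -0.76 and -0.55, past the threshold in 4 of the 12 fits. Such fits have fewer arrays; the cause of their other differences was not tested. Other alternatives (filters, median centring, additive terms, all rows, trend) gave between 229 and 300 genes. Cxcl1 lost its call with additive terms. Dim rows, whose differences RMA compresses, limit what could be read of Akr1e1, Ifi208, Il1f9 and Serpinb2.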

Other observations

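Some further called genes of no list used above were named after their values were seen, and they form no tested group. The lactate transporter Slc16a1 fell by 0.42, and the folate enzyme Mthfd1l fell by 0.39. Both stayed called with correlated pairs and in all 12 fits that left out 1 array. Elovl6, which elongates fatty acids, fell by 0.50 ± 0.10 (SE, limma adjusted p = 0.0204) and stayed called in 11 of the 12. The Fc receptor Fcgr4 rose by 0.41 and stayed called in 10 of the 12, whereas Cd83 (0.38) stayed called in 3 and Il10ra (0.26), a chain of the interleukin 10 receptor, in 0, and both were lost with correlated pairs. The lectin receptor Clec4n (-0.36) stayed called in all 12, and Clec5a (-0.35) in 8.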
